A study of Mus musculus with 4 samples.

Results

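The genes described here are 10 liver enzymes that oxidise aldehydes or alcohols: the aldehyde dehydrogenase genes Aldh1a1, Aldh1a7, Aldh1b1, Aldh1l1, Aldh2, Aldh3a2, Aldh7a1 and Aldh9a1, and the alcohol dehydrogenase genes Adh1 and Adh4. They were chosen by name as enzymes that can clear lipid aldehydes or alcohols, and their probes were found by matching each probe's accession to a RefSeq gene table. All 10 were on the array, read by 11 of its 39429 probes, among 20882 genes that could be named. The 4 liver RNA samples came from male mice that were high-fat knockout, normal-diet knockout, high-fat wild-type or normal-diet wild-type, where knockout means loss of catalase, with 1 array for each group. The high-fat diet held 60.3% of its calories as fat and the normal diet 18%, and each was fed for 11 weeks, from 29 to 40 weeks of age. The labels name neither the strain nor the knockout allele, nor do they say how many animals a sample pooled. No value below has a replicate.

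Aldehyde dehydrogenases convert aldehydes to carboxylic acids with NAD or NADP as cofactor, and zinc-containing alcohol dehydrogenases interconvert alcohols and aldehydes with NAD. Peroxidation of membrane and stored lipids yields reactive aldehydes such as hydroxynonenal and malondialdehyde, and fatty alcohols and ether lipids yield long-chain fatty aldehydes. In liver the same families also oxidise ethanol, acetaldehyde, retinol, retinal and intermediates of amino acid and folate metabolism. Catalase, the enzyme missing in the knockout, breaks down hydrogen peroxide in peroxisomes.

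Each value below is a scaled signal, the background-subtracted intensity of a probe divided by the 75th percentile of all probes on its array, unless it is named as a log2 difference. The ± after a log2 difference is the scanner's error model for the 2 arrays compared, which covers spot measurement and not the spread between animals. That error was 0.20 for every member on its brighter or single probe. How many of all genes differed by more than their own scanner error was not counted, so counts of members beyond it have no general share beside them. Repeated spots of bright probes within an array had a median SD of 0.046 to 0.050 on the log2 scale. A gene was counted as changed when it differed at least 2-fold, a log2 difference of 1, and was well above background on both arrays or differed 2-fold by its bound. All 11 member probes were well above background on all 4 arrays, and no spot was saturated. Cat, the targeted gene, had scaled signals on the brighter of its 2 probes of 1.93 in high-fat knockout, 2.20 in normal-diet knockout, 27.0 in high-fat wild-type and 29.7 in normal-diet wild-type liver. Where its probes lie relative to the deleted part of the gene is not known here. The 8 hepatocyte markers on the array were well above background on every array.

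The upstream sequences of Aldh3a2 and Adh4 are shown because these genes had the largest diet differences in wild type, in opposite directions. Each is the 250 bases before the RefSeq start on GRCm38.p6, 5′ to 3′, with capitals marking AGGTCA, a hexamer bound by many nuclear receptors, on either strand. The Aldh3a2 window is chr11:61267187-61267436 on the minus strand, and the Adh4 window is chr3:138415247-138415496 on the plus strand.
Aldh3a2: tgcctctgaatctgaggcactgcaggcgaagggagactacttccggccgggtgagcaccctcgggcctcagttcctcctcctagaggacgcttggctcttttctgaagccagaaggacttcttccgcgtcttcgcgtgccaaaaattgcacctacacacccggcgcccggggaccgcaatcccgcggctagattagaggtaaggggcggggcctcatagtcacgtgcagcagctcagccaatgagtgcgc
Adh4: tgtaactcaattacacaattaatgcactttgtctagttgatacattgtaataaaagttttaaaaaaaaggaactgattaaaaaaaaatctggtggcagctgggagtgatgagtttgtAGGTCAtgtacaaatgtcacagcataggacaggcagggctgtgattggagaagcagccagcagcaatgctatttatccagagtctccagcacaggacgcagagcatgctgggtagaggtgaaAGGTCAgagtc
The Adh4 window held AGGTCA at positions -133 and -11 from the start, and the Aldh3a2 window held none. AGGTCA was present in 14.0% of 32851 windows of the same length, and in those of Adh4 and Aldh1l1 among 8 members with a window. The direct repeat of AGGTCA with 1 base between its copies, called DR1, was present in 0.0335% of windows and in 0 member windows. The antioxidant response element core TGACNNNGC, whose first bases can overlap AGGTCA read on the other strand, was present in 10.2% of windows and, among members, in that of Aldh9a1. These matches are letters in a window and were not tested as binding sites.

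Aldh1a1 and Aldh1a7 are neighbours on chromosome 19 with 0 protein-coding genes between them in the RefSeq order. A pair of upstream windows is shown because it holds a long shared run, with capitals marking the longest run shared by both. The Aldh1a1 window, before the downstream of its starts in RefSeq, is chr19:20601718-20601967 on the plus strand, and the Aldh1a7 window is chr19:20727557-20727806 on the minus strand.
Aldh1a1: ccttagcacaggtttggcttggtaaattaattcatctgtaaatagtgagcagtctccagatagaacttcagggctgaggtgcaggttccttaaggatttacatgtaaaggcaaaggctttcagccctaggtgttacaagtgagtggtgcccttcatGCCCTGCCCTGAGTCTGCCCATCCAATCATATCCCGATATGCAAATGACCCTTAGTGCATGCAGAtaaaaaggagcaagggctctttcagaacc
Aldh1a7: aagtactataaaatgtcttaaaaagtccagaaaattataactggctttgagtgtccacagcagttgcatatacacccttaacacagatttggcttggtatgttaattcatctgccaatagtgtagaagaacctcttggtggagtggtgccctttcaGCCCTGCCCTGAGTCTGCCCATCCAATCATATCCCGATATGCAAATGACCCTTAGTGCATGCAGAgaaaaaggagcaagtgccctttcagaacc
The shared run was 65 bases long, from -94 to -30 in both genes. A gapped alignment of the windows matched 176 of the 250 bases in each. The window before the other RefSeq start of Aldh1a1 is chr19:20492333-20492582 on the plus strand. It was less like that of Aldh1a7, with 140 of 250 bases matched and a longest shared run of 8 bases. How many bases unrelated windows match in such an alignment was not measured. The sequences of the array probes were not used here, so how far each probe also binds the other gene's transcript is not known. Values of this pair are therefore uncertain as values of single genes. Adh1 and Adh4 lie on chromosome 3 with Adh6a and Adh6b between them, Adh7 before Adh1 and Adh5 after Adh4.

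None of the 10 enzymes changed 2-fold in any of the 4 comparisons of 2 arrays. The diet comparison in wild type asks what 11 weeks of high-fat feeding did with catalase present. In it 4.09% of 14633 genes changed, 1.78% higher and 2.31% lower on the high-fat diet, and 0 of 10 members did. Under median scaling more genes were higher than lower, 304 against 280. The median log2 difference of the members was -0.01, against -0.02 over the 13548 genes well above background on all 4 arrays. Above 0 were 4 of 10 members and 45.6% of these genes. Differences larger than the scanner error were seen for 2 members with more signal on the high-fat diet, Aldh3a2 and Aldh2, and for 3 with less, Adh4, Aldh1l1 and Aldh1a7. The members' median turned positive, to 0.08, under median scaling, quantile normalization and cyclic loess normalization. It was also positive, at 0.04, with the mean of all probes of a gene.

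**Figure D1:**
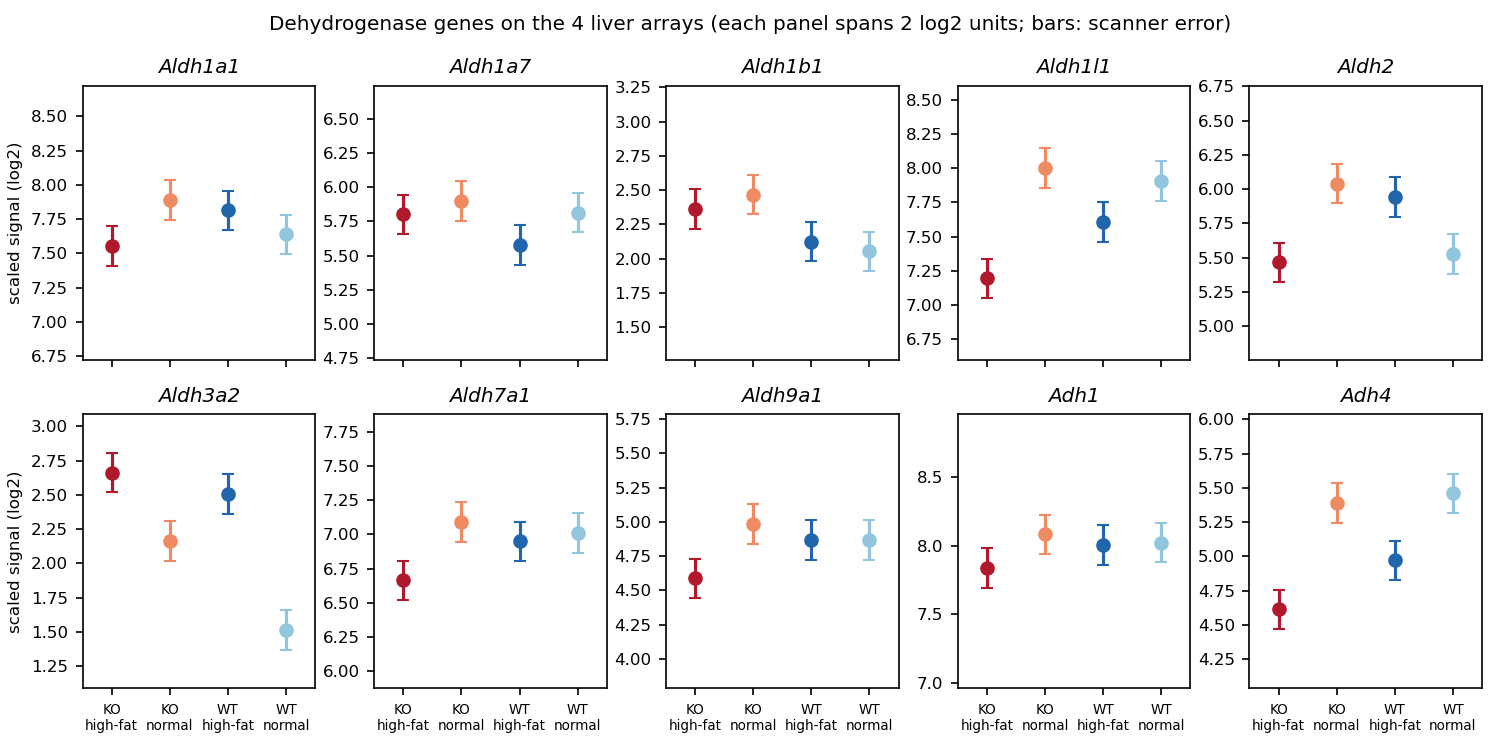
Scaled log2 signal of each enzyme (y axis, 2 log2 units in every panel) on the array of high-fat knockout, normal-diet knockout, high-fat wild-type and normal-diet wild-type liver (x axis, KO knockout, WT wild type). Points are single arrays and bars are the scanner error; Aldh3a2 had the widest span, 1.15 log2 units, and Adh1 the narrowest, 0.25.

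Aldh3a2 encodes the membrane-bound fatty aldehyde dehydrogenase of the endoplasmic reticulum and peroxisome, which oxidises long-chain fatty aldehydes and is a known target of the fatty acid receptor PPARalpha in rodent liver. Its scaled signal was 6.33 in high-fat knockout, 4.48 in normal-diet knockout, 5.67 in high-fat wild-type and 2.85 in normal-diet wild-type liver. The wild-type normal-diet array was thus the low one, and both high-fat arrays lay above both normal-diet arrays. How many of all genes separate by diet in this way was not counted. The high-fat diet differed from normal diet by 0.50 ± 0.20 on the log2 scale in the knockout and by 0.99 ± 0.20, or 1.99-fold, in wild type. The wild-type difference lay just below the 2-fold limit, and it was 1.08 under median scaling and 1.02 after cyclic loess normalization. Knockout differed from wild type by 0.65 ± 0.20 on normal diet and by 0.16 ± 0.20, less than the scanner error, on high-fat diet. Among the 3045 genes whose mean signal lay within the range of the members, 97.7% had a lower diet difference in the knockout and 99.1% in wild type.

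Aldh3a2 was the only member whose signal spanned at least 1 log2 unit over the 4 arrays. The 3 genes with the most similar pattern among 13538 were Fam102a, Acot4 and Trp63, with root mean square differences of 0.054, 0.058 and 0.063 between mean-centred log2 values. Acot4, a peroxisomal acyl-CoA thioesterase gene, had scaled signals of 3.03 in high-fat knockout, 2.14 in normal-diet knockout, 2.91 in high-fat wild-type and 1.31 in normal-diet wild-type liver. Fam102a, Acot4 and Trp63 were all lowest on the wild-type normal-diet array, as Aldh3a2 was. This follows from how they were picked and is no separate result. The likeness rests on 4 arrays, so it describes them only.

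Adh4, a class II alcohol dehydrogenase that acts on retinol and larger alcohols, had less signal on the high-fat diet in both genotypes. Its scaled signal was 24.5 in high-fat knockout, 41.9 in normal-diet knockout, 31.4 in high-fat wild-type and 44.0 in normal-diet wild-type liver. The log2 difference between diets was -0.78 ± 0.20 in the knockout and -0.49 ± 0.20 in wild type. It was negative under all 7 alternative settings, between -0.88 and -0.55 in the knockout and between -0.49 and -0.35 in wild type. Adh1, the class I enzyme and main ethanol dehydrogenase of liver, had scaled signals of 228.8 in high-fat knockout, 271 in normal-diet knockout, 257 in high-fat wild-type and 260.5 in normal-diet wild-type liver. Its diet differences were -0.25 ± 0.20 in the knockout and -0.02 ± 0.20 in wild type, and both became positive under quantile normalization.

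Of the other genes in this chromosome 3 cluster, Adh6a was dim and moved the most. Its scaled signal was 0.014 in high-fat knockout, 0.248 in normal-diet knockout, 0.019 in high-fat wild-type and 0.082 in normal-diet wild-type liver. It was not well above background on either high-fat array, so the high-fat value is a bound. It was at least 13.0-fold lower in the knockout and at least 3.45-fold lower in wild type. These limits depend on the processing. Over the settings the log2 differences of Adh6a shrank to -2.18 in the knockout and -0.97 in wild type. Adh5, the class III formaldehyde-metabolising enzyme, differed between diets by -0.40 in the knockout and 0.17 in wild type on the log2 scale. Adh7, the class IV enzyme, differed by 0.00 in the knockout and -0.64 in wild type, and Adh6b was not matched to a probe. Adh5 and Adh7 are given as neighbours, chosen after their values were seen. Cross-hybridisation among these similar genes was not tested.

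Among the mitochondrial enzymes, Aldh2, which oxidises acetaldehyde and hydroxynonenal, had a diet difference of opposite sign in the 2 genotypes. Its scaled signal was 44.1 in high-fat knockout, 65.8 in normal-diet knockout, 61.5 in high-fat wild-type and 46.1 in normal-diet wild-type liver. The high-fat knockout and normal-diet wild-type arrays were low and close together, and the other two were high. The diet difference was -0.58 ± 0.20 in the knockout and 0.42 ± 0.20 in wild type, and the knockout differed from wild type by 0.52 ± 0.20 on normal diet and by -0.48 ± 0.20 on high-fat diet. The knockout's diet difference minus that of wild type was -0.99 ± 0.29, and it lay between -1.19, past 2-fold, under median scaling and -0.90 over the settings. For this difference of diet effects 5% of 13548 genes passed 2-fold, 3.73% higher and 1.28% lower, and 0 of 10 members did. The members' median was -0.38, against -0.04 over all of these genes and -0.14 over the genes as bright.

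Aldh1b1, a related mitochondrial enzyme for acetaldehyde and retinal, followed another pattern, with scaled signals of 5.15 in high-fat knockout, 5.53 in normal-diet knockout, 4.36 in high-fat wild-type and 4.15 in normal-diet wild-type liver. It was higher in the knockout by 0.42 ± 0.20 on normal diet and by 0.24 ± 0.20 on high-fat diet, while its diet differences of -0.10 in the knockout and 0.07 in wild type lay within the scanner error.

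Aldh1a1, the main cytosolic retinal and lipid aldehyde dehydrogenase of liver, had scaled signals of 188 in high-fat knockout, 237 in normal-diet knockout, 225 in high-fat wild-type and 199 in normal-diet wild-type liver. Its neighbour Aldh1a7 had 55.7 in high-fat knockout, 59.7 in normal-diet knockout, 47.7 in high-fat wild-type and 56.2 in normal-diet wild-type liver. On the high-fat diet the knockout differed from wild type by -0.26 ± 0.20 for Aldh1a1 and by 0.22 ± 0.20 for Aldh1a7, in opposite directions. For Aldh1a1 the diet difference was -0.34 ± 0.20 in the knockout and 0.17 ± 0.20 in wild type. For Aldh1a7 it was -0.10 ± 0.20 in the knockout, where quantile normalization gave 0.14, and -0.24 ± 0.20 in wild type.

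Aldh1l1, the cytosolic folate enzyme that oxidises formyltetrahydrofolate, had scaled signals of 147 in high-fat knockout, 257 in normal-diet knockout, 195 in high-fat wild-type and 240.1 in normal-diet wild-type liver. As with Adh4, both high-fat arrays were below both normal-diet arrays, a separation that was not counted over all genes. The diet difference was -0.81 ± 0.20 in the knockout and -0.30 ± 0.20 in wild type. After quantile normalization the knockout value was -0.52. Aldh7a1, which oxidises the semialdehyde of lysine breakdown, had scaled signals of 101 in high-fat knockout, 136 in normal-diet knockout, 124 in high-fat wild-type and 129 in normal-diet wild-type liver on its brighter probe. Aldh9a1, which oxidises trimethylaminobutyraldehyde on the path to carnitine, had 24.0 in high-fat knockout, 31.6 in normal-diet knockout, 29.2 in high-fat wild-type and 29.2 in normal-diet wild-type liver. For both the knockout on high-fat diet was the low array and the other 3 were close together. The second Aldh7a1 probe, for another RefSeq transcript, had scaled signals of 0.090 in high-fat knockout, 0.104 in normal-diet knockout, 0.094 in high-fat wild-type and 0.076 in normal-diet wild-type liver. It differed between diets by 0.31 ± 0.24 in wild type, where the brighter probe differed by -0.06 ± 0.20, the opposite sign.

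The same diet comparison in the knockout gave lower signal for most of the enzymes. In it 5.86% of 14902 genes changed, 4.22% higher and 1.64% lower on the high-fat diet, and 0 of 10 members did. The median log2 difference of the members was -0.37, against -0.07 over all 13548 genes and -0.17 over the 3045 genes as bright as the members. Of the members 7 were lower by more than the scanner error, 1 (Aldh3a2) was higher by more, and 2 (Aldh1a7 and Aldh1b1) lay within it. Above 0 were 1 of 10 members and 39.7% of all 13548 genes. Most genes as bright were below 0 as well, since 63.5% of them lay below the -0.10 of Aldh1a7. After quantile normalization the median was -0.12 for the members and -0.01 for the genes as bright, and 7 of 10 members were below 0. Fewer hepatocytes and less RNA per hepatocyte cannot be told apart in these whole-tissue samples.

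Markers of other cell types moved on the same arrays. Of 9 macrophage markers, 6 rose and 0 fell, and their summed scaled signal was 87.9 in knockout liver on high-fat diet and 33.5 in knockout on normal diet. Of 9 stellate cell and matrix markers 3 rose, with sums of 79.4 on high-fat and 51.6 on normal diet. The sum of 8 hepatocyte markers was 2199 on high-fat and 2605 on normal diet, with a median log2 difference of -0.26 and 0 changed. Of 8 pericentral and 8 periportal hepatocyte markers 2 and 3 fell, and their sums were 650 and 518 on high-fat diet, against 893 and 799 on normal diet. In the same comparison the sums of endothelial markers were 36.4 on high-fat and 33.5 on normal diet and those of adipocyte markers 10.7 on high-fat and 2.75 on normal diet, while the adipocyte markers Adipoq, Plin1 and Lep were not well above background on any array, nor was the bile duct marker Epcam. The part of these shifts in the values of the enzymes was not tested.

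**Figure D2:**
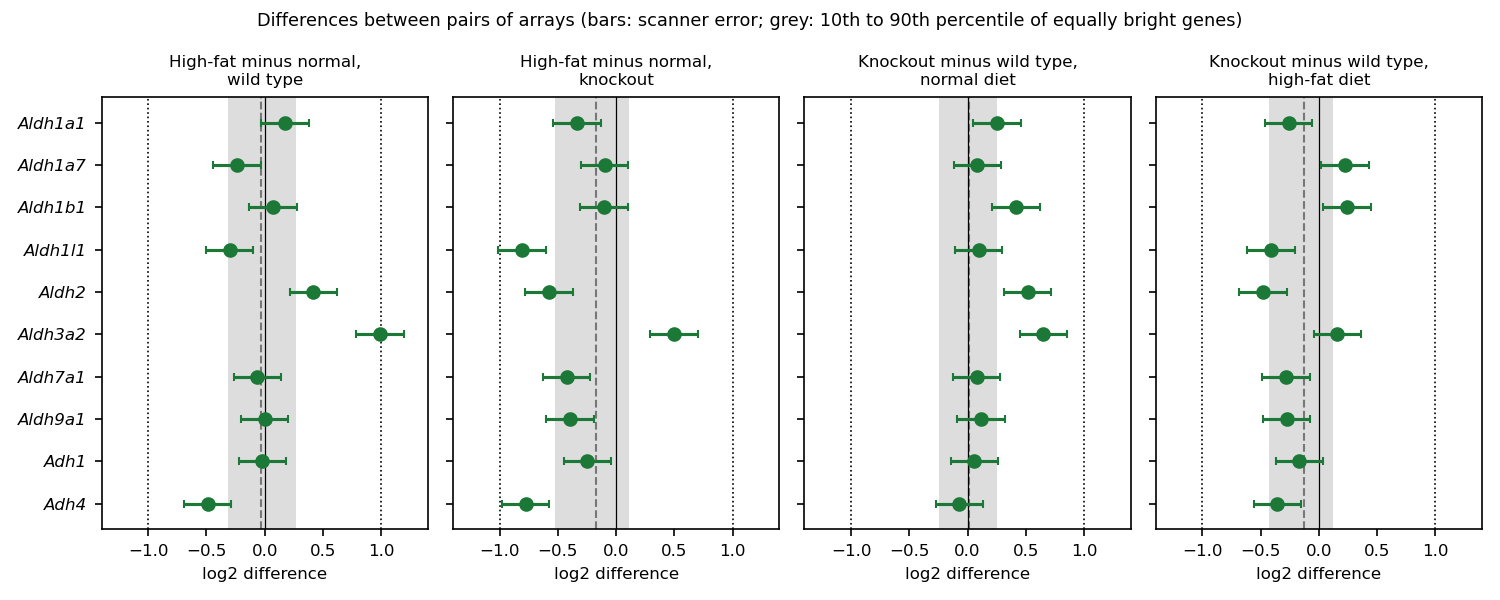
Log2 difference of each enzyme (x axis) in the 4 comparisons of 2 arrays, with bars for the scanner error, dotted lines at 2-fold, and a grey band from the 10th to the 90th percentile of the 3045 genes as bright, whose median is the dashed line. Aldh3a2 reached 0.99 in wild type, and 9 of 10 enzymes lay below 0 for diet in the knockout. Of all 13548 genes, 39.7% lay above 0 in that comparison. The genes as bright were mostly below 0 there too, with a median of -0.17.

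On the normal diet, the comparison of knockout with wild type asks what loss of catalase did by itself. In it 3.91% of 14699 genes changed, 1.4% higher and 2.5% lower in the knockout, and 0 of 10 members did. Above 0 were 9 of 10 members and 48.2% of all 13548 genes. The members' median log2 difference was 0.11, against -0.01 over all of these genes. It was 0.25 under median scaling, which moved all genes by 0.14. More signal in the knockout by more than the scanner error was seen for Aldh3a2 at 0.65, Aldh2 at 0.52, Aldh1b1 at 0.42 and Aldh1a1 at 0.25, each ± 0.20. Adh4 was the member below 0, at -0.07 ± 0.20, and it was 0.07 under median scaling. This comparison shares the wild-type normal-diet array with the diet comparison in wild type, so both carry whatever was particular to it.

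On the high-fat diet 4.1% of 14841 genes differed 2-fold between knockout and wild type, 2.51% higher and 1.59% lower in the knockout, and 0 of 10 members did. The members' median was -0.27, against -0.04 over all 13548 genes and -0.13 over those as bright. Above 0 were 3 of 10 members and 42.9% of all 13548 genes. Of the members 6 were lower by more than the scanner error, from -0.48 ± 0.20 for Aldh2 to -0.26 ± 0.20 for Aldh1a1. Aldh1b1 and Aldh1a7 were higher by more, at 0.24 and 0.22. After quantile normalization the members' median was -0.09, and that of genes as bright was 0.00. Of 9 macrophage markers 3 were higher in the knockout, with sums of 87.9 in the knockout and 48.7 in wild type on this diet. Of 9 stellate cell and matrix markers 2 were higher. Hepatocyte markers summed to 2199 in the knockout and 2675 in wild type. Of 8 pericentral and 8 periportal hepatocyte markers 2 and 2 were lower in the knockout, with sums of 650 and 518 there. In wild type these sums were 895 and 664. The part of these marker differences in the values of the enzymes was not tested.

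The 4 arrays allow 1 test across all genes, an additive fit of diet and genotype whose 1 residual degree of freedom is their interaction. With limma's moderated test and Benjamini-Hochberg adjustment over 14343 genes, 0 genes passed 0.05 for diet and 0 for genotype, while 1425 (9.94%) and 1041 (7.26%) had an unadjusted p under 0.05. Among the members 2 had an unadjusted p under 0.05 for diet, Adh4 and Aldh3a2, and 0 for genotype. The fitted diet difference from limma was -0.63 ± 0.14 (SE) for Adh4, with an adjusted p of 0.458. For Aldh3a2 it was 0.75 ± 0.18 (SE), with an adjusted p of 0.468 from the same fit. For genotype the smallest adjusted p of a member in limma was 0.707, for Aldh1b1. These p-values treat any interaction as error, which bears most on Aldh2. The same fit did not call Cat, the targeted gene, for genotype. Its brighter probe was 13.5-fold lower in the knockout on normal diet and 14.0-fold lower on high-fat diet. A member without a call is therefore not shown to be unchanged.

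Related enzymes were read from 5 lists, of which 69 of 72 genes were on the array. Over all genes 1.78% rose and 2.31% fell with diet in wild type, and 4.22% rose and 1.64% fell in the knockout. Between genotypes 1.4% were higher and 2.5% lower in the knockout on normal diet, and 2.51% and 1.59% on high-fat diet. For the difference of diet effects 3.73% were higher and 1.28% lower. Of 12 other aldehyde dehydrogenase genes, Aldh4a1, Aldh5a1, Aldh6a1, Aldh8a1, Aldh16a1, Aldh3a1 and Aldh1a2 did not differ 2-fold in any comparison, and Aldh18a1 and Aldh3b2 were not well above background on any array. Aldh3b1, which oxidises aldehydes of membrane lipids, rose by 1.04 ± 0.21 with diet in the knockout and was higher in the knockout by 1.21 ± 0.21 on high-fat diet, and the diet value was 0.88 at its lowest over the settings. Its scaled signal was 0.535 in high-fat knockout, 0.260 in normal-diet knockout, 0.231 in high-fat wild-type and 0.350 in normal-diet wild-type liver. Aldh1l2, the mitochondrial relative of Aldh1l1, was detected well above background in normal-diet wild-type liver alone. It was at least 4.84-fold lower in wild type on high-fat diet and at least 5.09-fold lower in the knockout on normal diet. These limits depend on the processing, and over the settings the log2 differences shrank to -1.23 and -1.22 at their smallest. Aldh1a3, a retinal dehydrogenase, was 2.19-fold higher in the knockout on normal diet, a log2 difference of 1.13 ± 0.39. Its wild-type signal was not well above background, and this fold is the plain ratio to that signal rather than a lower limit. The list's median was -0.25 for diet in the knockout and -0.01 for diet in wild type.

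Among 17 other alcohol and retinol dehydrogenase genes, 0 rose and 2 fell with diet in the knockout, 1 rose and 3 fell in wild type, and 3 were higher and 1 lower in the knockout on normal diet. Rdh11, a retinal reductase, fell by 1.42 ± 0.20 on the log2 scale with diet in the knockout and by 1.23 ± 0.20 in wild type. Its scaled signal was 2.96 in high-fat knockout, 7.94 in normal-diet knockout, 3.55 in high-fat wild-type and 8.33 in normal-diet wild-type liver. Both high-fat values lay below both normal-diet values, and how many of all genes separate by diet was not counted. Hsd17b6 and Rdh16, which oxidise retinol and steroids, were higher in the knockout on normal diet by 1.15 ± 0.20 and 1.26 ± 0.20, and Hsd17b6 rose by 1.05 ± 0.20 with diet in wild type. Adh6a was higher in the knockout on normal diet by 1.60 ± 0.22. Dhrs9, a retinol dehydrogenase, was detected in normal-diet wild-type liver alone, at least 4.26-fold lower on high-fat diet in wild type and at least 4.48-fold lower in the knockout on normal diet. On high-fat diet 0 of these genes differed 2-fold between genotypes.

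Among 17 aldo-keto and carbonyl reductase genes, whose products reduce aldehydes and ketones, Cbr3 was the one that changed in the 4 comparisons of 2 arrays. For the difference of the diet effects, knockout minus wild type, 2 genes of this list were higher, Cbr3 at 2.30 and Ptgr1 at 1.11, and 1 was lower, Akr1d1 at -1.26 on the log2 scale; Ptgr1 and Akr1d1 are named after their values were seen. Cbr3, a carbonyl reductase, had scaled signals of 3.16 in high-fat knockout, 0.503 in normal-diet knockout, 0.377 in high-fat wild-type and 0.296 in normal-diet wild-type liver. The knockout high-fat array stood above the others, by 2.65 ± 0.20 over the knockout on normal diet and by 3.07 ± 0.20 over wild type on high-fat diet. The list's median was -0.22 for diet in the knockout and 0.01 between genotypes on high-fat diet.

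Of 11 other genes for aldehydes, ethanol and acetate, 1 rose and 1 fell with diet in the knockout, 0 rose and 2 fell in wild type, and 1 and 2 were higher in the knockout on high-fat and normal diet with 0 lower. Acss2, the cytosolic acetyl-CoA synthetase that uses the acetate made from acetaldehyde, fell by 1.60 ± 0.20 with diet in the knockout and by 1.37 ± 0.20 in wild type. Gstp1, a glutathione transferase that conjugates reactive aldehydes, fell by 1.34 ± 0.20 in wild type. Its signal on the knockout arrays, 94.0 on high-fat and 131 on normal diet, lay between the wild-type values of 80.3 on high-fat and 203 on normal diet. Gsta2, another transferase, and Acss3 were higher in the knockout on normal diet by 1.15 ± 0.20 and 1.26 ± 0.21. Acss1, the mitochondrial acetyl-CoA synthetase, was dim and rose by 1.09 ± 0.29 with diet in the knockout, with a genotype difference of 1.24 ± 0.31 on high-fat diet. The diet value of Acss1 was under 2-fold in 4 of 8 settings (median scaling, quantile, cyclic loess and normexp), and 0.45 at its lowest. Cyp2e1, the ethanol-oxidising P450, and Gsta4, a transferase for hydroxynonenal, did not differ 2-fold in any comparison, and were chosen after their values were seen, with diet differences in the knockout of -0.31 and -0.30.

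Of 12 genes of retinoid handling, 0 changed with diet in the knockout, and 2 fell and 0 rose in wild type. Cyp26a1, which degrades retinoic acid, fell by 1.57 ± 0.20 in wild type, with scaled signals of 1.46 on high-fat and 4.34 on normal diet. Crabp1, a retinoic acid binding protein gene, was detected in normal-diet wild-type liver alone. It was at least 5.02-fold lower on high-fat diet in wild type and at least 5.28-fold lower in the knockout on normal diet. Over the settings these log2 differences shrank to -1.25 and -1.32, so the limits depend on the processing. Normal-diet wild-type liver was thus the one sample with measurable Aldh1l2, Dhrs9 and Crabp1. After normexp background correction the dim genes Dhrs9, Aldh1a3, Acss1 and Acss3 were no longer counted as changed, nor was Adh6a except for diet in the knockout, nor Hsd17b6 for diet in wild type.

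**Figure D3:**
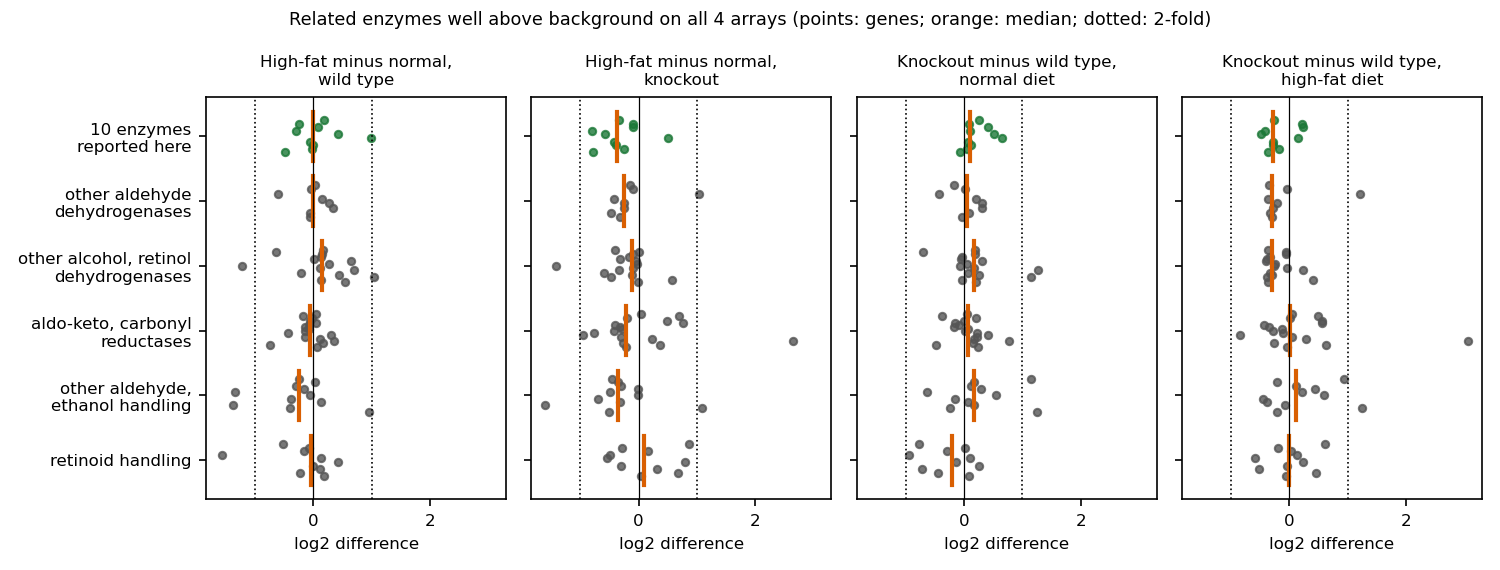
Log2 difference (x axis) of the 10 enzymes and of the related genes well above background on all 4 arrays, by list (y axis), in the 4 comparisons; points are genes, orange bars are medians and dotted lines mark 2-fold. Cbr3 is the point at 2.65 for diet in the knockout and at 3.07 between genotypes on high-fat diet.

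**Figure D4:**
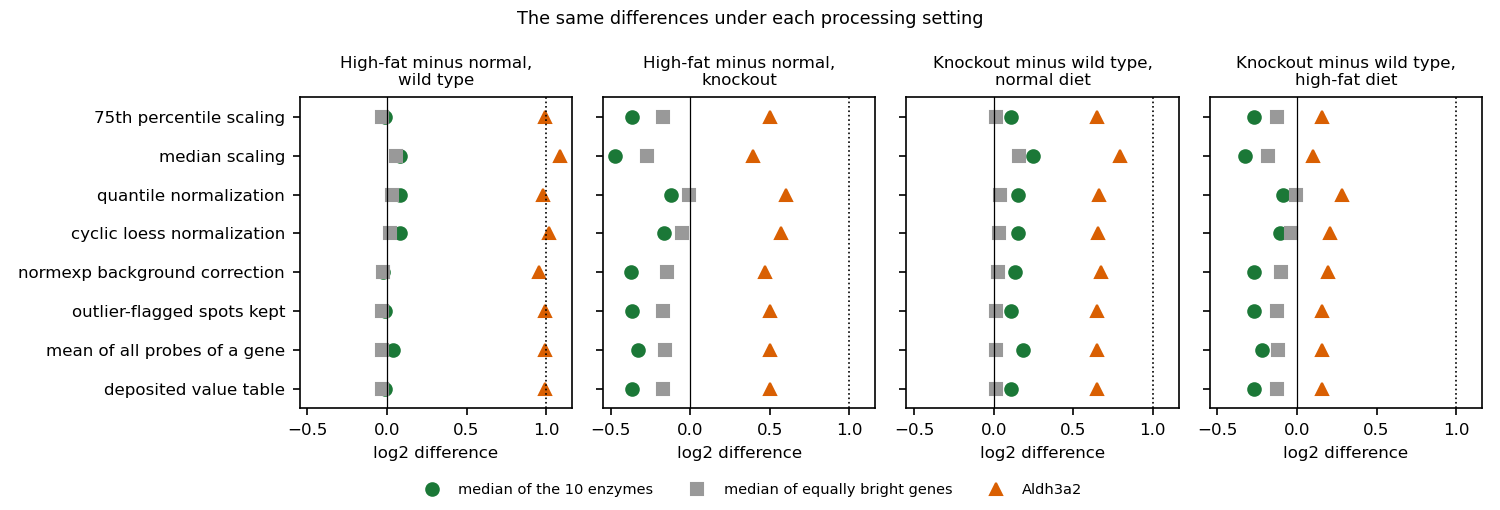
Median log2 difference of the 10 enzymes, of the genes as bright, and the value of Aldh3a2 (x axis) under each processing setting (y axis) in the 4 comparisons, with 2-fold as a dotted line. For diet in the knockout the median of the enzymes was -0.37 with 75th percentile scaling and -0.12 after quantile normalization, and Aldh3a2 lay near the 2-fold line in wild type under every setting shown.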

How the data were processed

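Liver RNA was labelled with Cy3 and read on 1-colour Agilent mouse arrays. The deposited files hold, per the file headers, background-subtracted intensity from Feature Extraction 11.5.1.1, and per the series' design text the authors extracted data with GeneSpring GX 7.3. The deposited value table holds linear intensity within 1% of the scanner's mean for 99.8% of probes on each array, with no centring. Its medians were 89.2, 72.4, 75.9 and 79.9 for high-fat knockout, normal-diet knockout, high-fat wild-type and normal-diet wild-type liver.

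Control spots were left out, as were outlier-flagged spots unless all of a probe's spots were flagged, spots of a probe were averaged on the log2 scale, and each array's 75th percentile was subtracted. It was 1152, 1002, 1019 and 1006 in that order, over 39429 probes, of which 25184, 23998, 23760 and 24580 were well above background. Accessions named 27502 probes through RefSeq genes of GRCm38.p6. The headers name build mm9, so no gene coordinates were taken across. Each gene was read by its brightest probe. A bound sets an array without a detected probe to the higher of its lowest detected signal and the probe's own.

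With 1 array per group there was no replicate test. The additive fit ran on genes detected well above background in 2 or more arrays, with limma 3.58.1 (R 4.3.3). It was tested on simulated data for the diet term over 14343 genes, where it called 92% of genes changed 2-fold and 36% of those changed 1.5-fold. The simulated noise was independent, of equal size for every gene and without interaction. Those shares are therefore not the power of the fit on the real arrays. Other steps ran in Python 3.11.15. The members, lists, rules and settings were chosen with earlier results of these data known. Genes named by rule are all members, Cat and the 3 most similar patterns for members spanning at least 1 log2 unit. They also include up to 4 genes per list and comparison of 2 arrays that changed 2-fold. Other list genes and markers are given as values or counts. The normexp alternative used median spot signals, since the scanner files give no mean signal. All 4 samples are single arrays, and array number limits the precision.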

Additional observations from a re-analysis of the deposited data

Results flagged for a closer look

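Opposite diet differences in the 2 genotypes, each larger than its scanner error, were found for 6 genes. These are genes named by rule that were well above background on all 4 arrays. Among genes mentioned outside that rule, Ptgr1, Akr1d1, Aldh5a1 and Aldh6a1 also had such differences. The difference was not tested, since each genotype has 1 array per diet. For Aldh2 the diet difference in the knockout minus that in wild type was -0.99 on the log2 scale. For Aldh3b1 it was 1.64 and for Acss1 1.49, with more signal on high-fat diet in the knockout and less in wild type. For Hsd17b6 it was -1.53, for Acss3 -1.47 and for Rdh16 -1.03, with less signal on high-fat diet in the knockout and more in wild type. The wild-type normal-diet array was the lowest of the 4 for Hsd17b6, Acss3 and Rdh16. Acss1 was dim, and its value was 0.79 after normexp background correction.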

How the results depend on the processing

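No paired analysis was possible because each group had 1 array. Of 350 differences of single members under the 7 alternatives, 336 moved by no more than the scanner error and 14 by more. All of the 14 came after quantile or cyclic loess normalization. Most of the 336 could hardly move. Median scaling shifts all genes alike, by less than the scanner error. Keeping flagged spots or using the deposited values left members nearly unchanged, and the mean of all probes can alter only Aldh7a1. The count of 336 is therefore not a measure of stability. The sign was kept under every setting for 42 of the 50 member values. The number of members changed 2-fold for diet in wild type was 1 under median scaling and 1 after cyclic loess normalization, in place of 0, and the gene was Aldh3a2. For the difference of the diet effects it was 1 under median scaling, Aldh2, in place of 0. The members' median for diet in the knockout was -0.12 after quantile normalization. After normexp background correction the genes of the 5 lists that changed were 5 in place of 9 between genotypes on normal diet and 6 in place of 10 for the difference of diet effects. That correction adds an offset, which pulls dim probes together. It gave 273, 409, 245, 263 and 326 changed genes in all, in place of 599, 874, 574, 609 and 678, for diet in wild type, diet in the knockout, genotype on normal diet, genotype on high-fat diet and the difference of diet effects. Median scaling turned the split for diet in wild type to 304 higher and 280 lower in place of 261 and 338. It moved the median of all genes by 0.09, -0.11, 0.14 and -0.06 for diet in wild type, diet in the knockout, genotype on normal diet and genotype on high-fat diet. It changed the split of higher and lower genes to 510 and 323 in place of 629 and 245 for diet in the knockout, to 264 and 285 in place of 206 and 368 between genotypes on normal diet, and to 308 and 297 in place of 505 and 173 for the difference of diet effects. No member passed the adjusted threshold in limma's additive fit under any setting run, but in the main setting that fit did not call Cat either. Calls of Hsd17b6 for diet in wild type, of Adh6a for diet in wild type and for genotype, of Aldh1a3, Dhrs9 and Acss3, and of Acss1 were lost after normexp. For diet in the knockout, that of Acss1 was also lost after median scaling, quantile or cyclic loess, and that of Aldh3b1 after median scaling, cyclic loess or normexp. For the difference of diet effects, those of Acss1 and Acss3 were lost after normexp, that of Rdh16 after quantile or cyclic loess, and that of Cyp26a1 after median scaling or normexp.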
